A study of Mus musculus with 10 samples.

Results

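The genes described here belong to the interferon response and to antigen presentation, and they were followed in mouse neuroblastomas with and without mutant ALK. They are 40 genes chosen by symbol, of 36161 gene names on the array, and each gene is read from its brightest probe on average over the 10 arrays. All 40 had a probe, and 38 were well above background often enough in the tumour channel to be tested, among 22263 genes tested in all. The arrays compared 5 tumours of mice labelled ALK+/-, MYCN+/- transgenic, which bear ALK, a receptor tyrosine kinase, with its F1174L mutation beside MYCN, with 5 tumours of mice labelled MYCN+/- transgenic, carrying MYCN alone. Every tumour was untreated and came from its own mouse, and MYCN is shared by both groups. The background was C57BL/6 x 129X1/SvJ for the ALK/MYCN mice and 129X1/SvJ for the MYCN mice. Hence the effect of ALK and that of the background cannot be told apart. The promoters that drive the transgenes, the ages and the sexes of the mice are not given in the sources used here. Tumour RNA was labelled with Cy3 and hybridised to 2-colour Agilent arrays beside Cy5-labelled Universal Mouse Reference RNA, a pool from 11 mouse cell lines. Every value below is a log2 ratio of tumour over that reference, so a value of 0 means a tumour signal equal to that of the reference, and values are compared between tumours for a given gene, not between genes.

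Interferons are secreted proteins that bind receptors coupled to JAK kinases. Type I interferons activate a complex that includes STAT2 and IRF9 and binds the interferon-stimulated response element, and type II interferon acts through the gamma-activated site. Targets include antiviral effectors and the machinery of antigen presentation: the immunoproteasome cuts peptides, the TAP transporter and tapasin load them onto class I molecules with beta-2 microglobulin, and class II molecules with the invariant chain present peptides taken up by macrophages, dendritic cells and B cells. Neuroblastoma cells, in particular those with high MYCN, are known for low levels of class I molecules, so in a whole tumour these transcripts can come from tumour cells or from infiltrating and stromal cells. The arrays measured RNA of whole tumours, and fewer cells of a type and less RNA per cell cannot be told apart in them.

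The promoters of these genes carry the binding sequences of the interferon factors more often than promoters at large, and the stretches below are shown for some of the members that hold them. Windows from 250 bases before to 50 after the start of transcription were taken from RefSeq (build GRCm38.p6), which held 32 of the 40 members. The response element was searched on both strands as a pair of GAAA runs with any 2 bases between them, which 14 of 32 members hold (43.8%) against 3.99% of 27025 genes, and with any 3 bases between them, which 4 hold (12.5%) against 3.17%. The gamma-activated site was searched as TTCNNNGAA, which reads the same on both strands, and 7 members hold it (21.9%) against 9.55% of genes. In the stretches below, printed 5′ to 3′ in the direction of the gene, capitals mark the letters of a match; matches overlap in Isg15, Oas1a and Bst2. A match is a description of the sequence and does not show that a factor bound there.
Isg15: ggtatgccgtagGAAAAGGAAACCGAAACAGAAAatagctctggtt
Ifit1: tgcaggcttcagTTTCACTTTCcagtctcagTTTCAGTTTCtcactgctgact
Oas1a: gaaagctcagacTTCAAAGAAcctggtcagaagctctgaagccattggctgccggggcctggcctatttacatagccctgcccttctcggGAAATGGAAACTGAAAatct
Bst2: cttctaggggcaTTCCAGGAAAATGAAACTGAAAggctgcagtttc
Rsad2: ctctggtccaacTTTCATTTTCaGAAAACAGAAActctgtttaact
B2m: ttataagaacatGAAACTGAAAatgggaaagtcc
H2-T23: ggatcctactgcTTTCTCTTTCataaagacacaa
Ifih1: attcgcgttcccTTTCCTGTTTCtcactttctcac
Stat2: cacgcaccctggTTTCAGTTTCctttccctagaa
Irf1: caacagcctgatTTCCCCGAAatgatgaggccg
Irf8: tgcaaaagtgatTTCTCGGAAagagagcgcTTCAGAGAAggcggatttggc
Their places are Isg15 (chr4:156200863-156200908, minus strand, from base 90 before the start), Ifit1 (chr19:34640773-34640825, plus strand, from base 116 before the start), Oas1a (chr5:120907526-120907635, minus strand, from base 110 before the start), Bst2 (chr8:71537575-71537620, minus strand, from base 148 before the start), Rsad2 (chr12:26456539-26456584, minus strand, from base 132 before the start), B2m (chr2:122147536-122147569, plus strand, from base 151 before the start), H2-T23 (chr17:36032804-36032837, minus strand, from base 136 before the start), Ifih1 (chr2:62646340-62646374, minus strand, from base 119 before the start), Stat2 (chr10:128270264-128270297, plus strand, from base 234 before the start), Irf1 (chr11:53769912-53769944, plus strand, from base 102 before the start) and Irf8 (chr8:120736175-120736225, plus strand, from base 183 before the start). The effector genes Isg15, Ifit1, Oas1a and Bst2 hold more than 1 response element match in the window, while B2m, H2-T23 and Stat2 hold 1 match. Among Isg15, Ifit1, Oas1a and Bst2, only Ifit1 has response element matches that lie apart, and in the others they share GAAA runs. Rsad2 holds 1 match of each spacing, as does Ifih1, whose match with 2 bases between the runs lies outside the stretch shown. Irf1 and Irf8 hold gamma-activated sites without a response element match in the windows. Ifit3, Gbp2, Gbp3, Ddx58, Psme1 and Psmb8 also hold a response element match, and Psmb8, Ifit2 and Ifi35 a gamma-activated site, in stretches not shown. Members with a match of 2 bases between the runs had a median difference between the groups of -0.52 on the log2 scale, and matched members without it had -0.54. For TTCNNNGAA these medians were -0.88 with and -0.45 without the match, over 7 and 25 members.

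Most of the 38 tested genes had a lower mean in ALK/MYCN tumours, but few differed beyond the spread between tumours. Irf8 and Nlrc5 were lower and Stat2 was higher at an adjusted p under 0.05 (limma, Benjamini-Hochberg over all genes tested), and the other 35 did not pass. Over all genes 26.5% passed, 14.2% higher and 12.2% lower, so 3 of 38 is a smaller share than the background. At an unadjusted p under 0.05 the members numbered 14, with 13 of them lower, where the array had 39.0% of its genes. The difference was below 0 for 34 of the 38, with a median of -0.62, while over all genes 50.5% were below 0 and the median was -0.004. The range ran from -1.80 for Cd74 to 0.63 for Stat2. None of the 38 separated the groups without overlap, whereas 19.9% of all genes did, 11.3% higher and 8.60% lower. By role the median difference was -1.43 for 4 class II genes, -1.18 for 4 class I genes, -0.53 for 8 genes of peptide supply, -0.62 for 6 transactivators and signalling factors, -0.54 for 2 RNA sensors and -0.37 for 14 antiviral effectors. All 14 tested effectors, all 8 class I and class II genes and both sensors were below 0, except that other scalings put Ifit2 (scanner-processed signals, median, between-array or spike-in scaling), Oasl2 (between-array or spike-in scaling) and Ifi35 (spike-in scaling) above 0. Below 0 were also 6 of 8 genes of peptide supply and 4 of 6 transactivators.

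**Figure D1:**
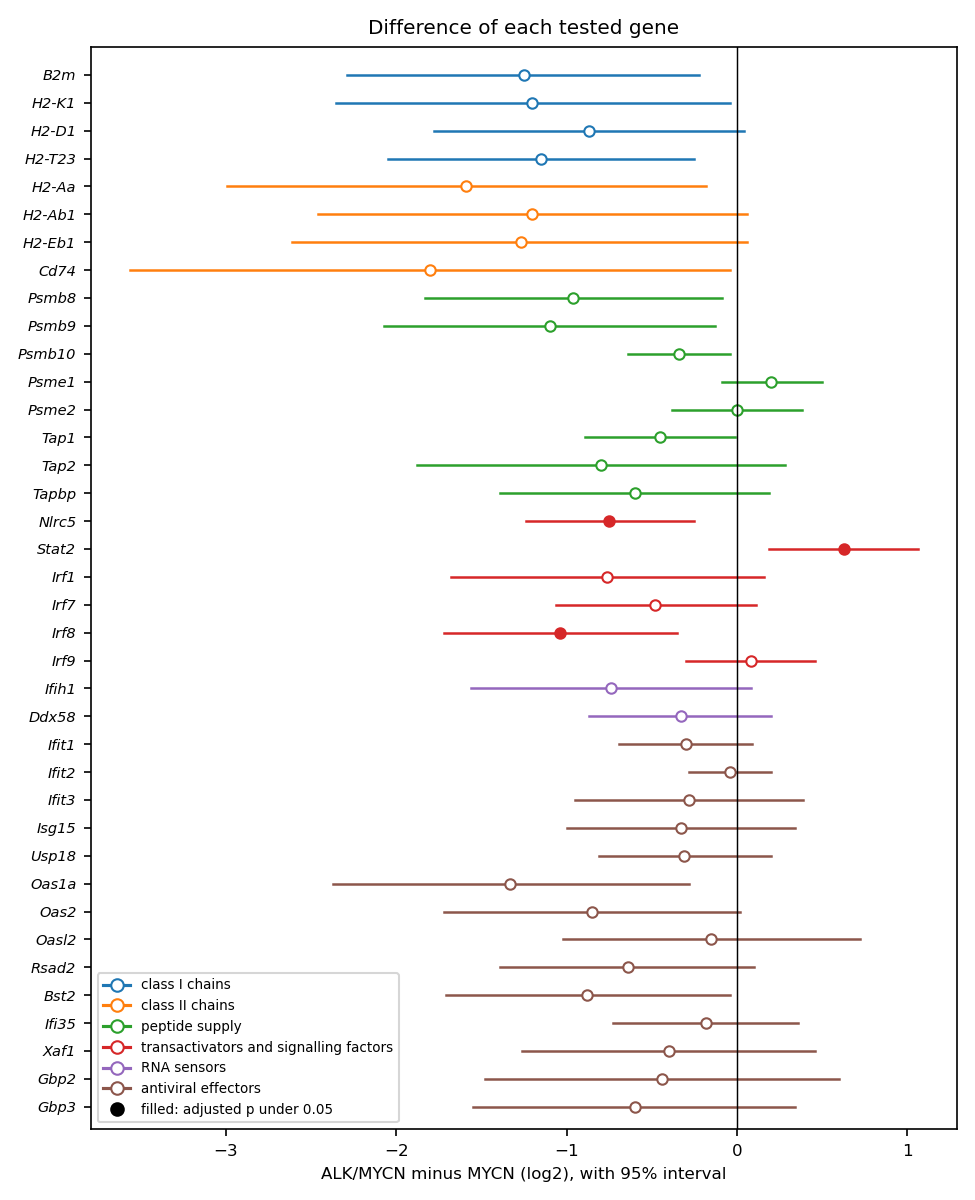
Difference between ALK/MYCN and MYCN tumours (horizontal axis, log2) for each of the 38 tested genes, with 95% intervals from limma and colours for the roles; filled points passed at an adjusted p under 0.05. Points of 34 genes lie below 0, and the filled ones are Nlrc5, Stat2 and Irf8.

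The classical and nonclassical class I genes read low in 4 of 5 ALK/MYCN tumours, while ALK/MYCN 3 stood with the MYCN tumours and MYCN 1 near the low group. B2m, the light chain shared by class I molecules, read -4.13, -3.80, -2.65, -3.88 and -3.39 in ALK/MYCN tumours 1 to 5 and -3.29, -2.80, -1.83, -0.78 and -2.89 in MYCN tumours 1 to 5. The means were -3.57 ± 0.58 against -2.32 ± 1.01 (SD, n = 5 each), and the difference between them was -1.25 ± 0.47 (SE, limma adjusted p = 0.0719), which did not pass. H2-K1, a classical class I heavy chain, read -2.78, -2.62, -0.98, -2.70 and -2.57 in ALK/MYCN tumours 1 to 5 and -2.42, -1.11, -0.75, 0.36 and -1.76 in MYCN tumours 1 to 5. ALK/MYCN 3 lay within the MYCN range, the other ALK/MYCN tumours lay below every MYCN tumour, and the difference was -1.20 ± 0.52 (limma adjusted p = 0.115). H2-D1, the other classical heavy chain, read -1.79, -1.63, -1.08, -1.71 and -1.70 in ALK/MYCN tumours 1 to 5 and -1.99, -0.78, -0.35, 0.68 and -1.08 in MYCN tumours 1 to 5. Here MYCN 1 was the lowest of all 10 tumours and MYCN 4 the highest, at a difference of -0.87 ± 0.41 (limma adjusted p = 0.142). H2-T23, which encodes the nonclassical molecule Qa-1, read -3.49, -3.32, -2.37, -3.40 and -3.25 in ALK/MYCN tumours 1 to 5 and -3.14, -2.08, -1.63, -0.74 and -2.48 in MYCN tumours 1 to 5. It had the smallest p of the 4, with a difference of -1.15 ± 0.40 (limma adjusted p = 0.0596), and again only ALK/MYCN 3 lay above the lowest MYCN tumours. Class I heavy chains are near-identical copies of each other, so these probes may share signal and the 3 values are uncertain as values of single genes. A second probe of H2-K1 gave -1.17 against -1.20. None of the 4 passed, and 3 of the 4 had an unadjusted p under 0.05 (limma). The probes for B2m and H2-K1 lie at chr2:121978401-121978460 and chr17:34133055-34133114 (mm9).

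The class II genes had the largest median difference of the 6 roles. H2-Aa, the alpha chain of the I-A molecule, read 0.20, 1.15, 2.48, 1.35 and 0.66 in ALK/MYCN tumours 1 to 5 and 0.67, 3.06, 3.90, 3.84 and 2.31 in MYCN tumours 1 to 5. The difference was -1.59 ± 0.63 (limma adjusted p = 0.0898). Its probe was above background on 4 of 5 ALK/MYCN arrays, on all 5 MYCN arrays and on no array in the reference channel, so its ratio rests on a dim reference. H2-Ab1, the beta chain of I-A, read -0.42, 1.80, 2.53, 1.62 and 1.13 in ALK/MYCN tumours 1 to 5 and 0.99, 2.78, 3.17, 3.14 and 2.59 in MYCN tumours 1 to 5. Of the MYCN tumours 4 lay between 2.59 and 3.17, above every ALK/MYCN tumour, and MYCN 1 lay among the ALK/MYCN tumours. The difference was -1.20 ± 0.57 (limma adjusted p = 0.145), and a second probe gave -1.25. H2-Eb1, the beta chain of the I-E molecule, read -1.33, 0.80, 1.83, 0.78 and 0.21 in ALK/MYCN tumours 1 to 5 and 0.10, 1.92, 2.40, 2.47 and 1.79 in MYCN tumours 1 to 5. It showed the same split, with ALK/MYCN 3 at the lower edge of the 4 high MYCN tumours and a difference of -1.27 ± 0.60 (limma adjusted p = 0.144). From the Cy3 channel alone H2-Ab1 and H2-Eb1 both differed by -2.08 ± 0.88 (limma adjusted p = 0.112). Cd74, the invariant chain that guides class II molecules, read -4.10, -2.19, -0.57, -2.20 and -2.87 in ALK/MYCN tumours 1 to 5 and -3.05, -0.43, 0.58, 0.74 and -0.80 in MYCN tumours 1 to 5. From ALK/MYCN 1 to MYCN 4 this is a range of 4.85, or 28.8-fold, the widest of the 38 genes, and the difference of -1.80 ± 0.79 (limma adjusted p = 0.121, 95% interval -3.56 to -0.04) did not pass. Ciita, the master regulator of class II genes, was not above background on any of the 10 arrays, and its values of -0.18 to 0.39 carry no test. None of the 4 tested class II genes passed, and 2 of them had an unadjusted p under 0.05 (limma).

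**Figure D2:**
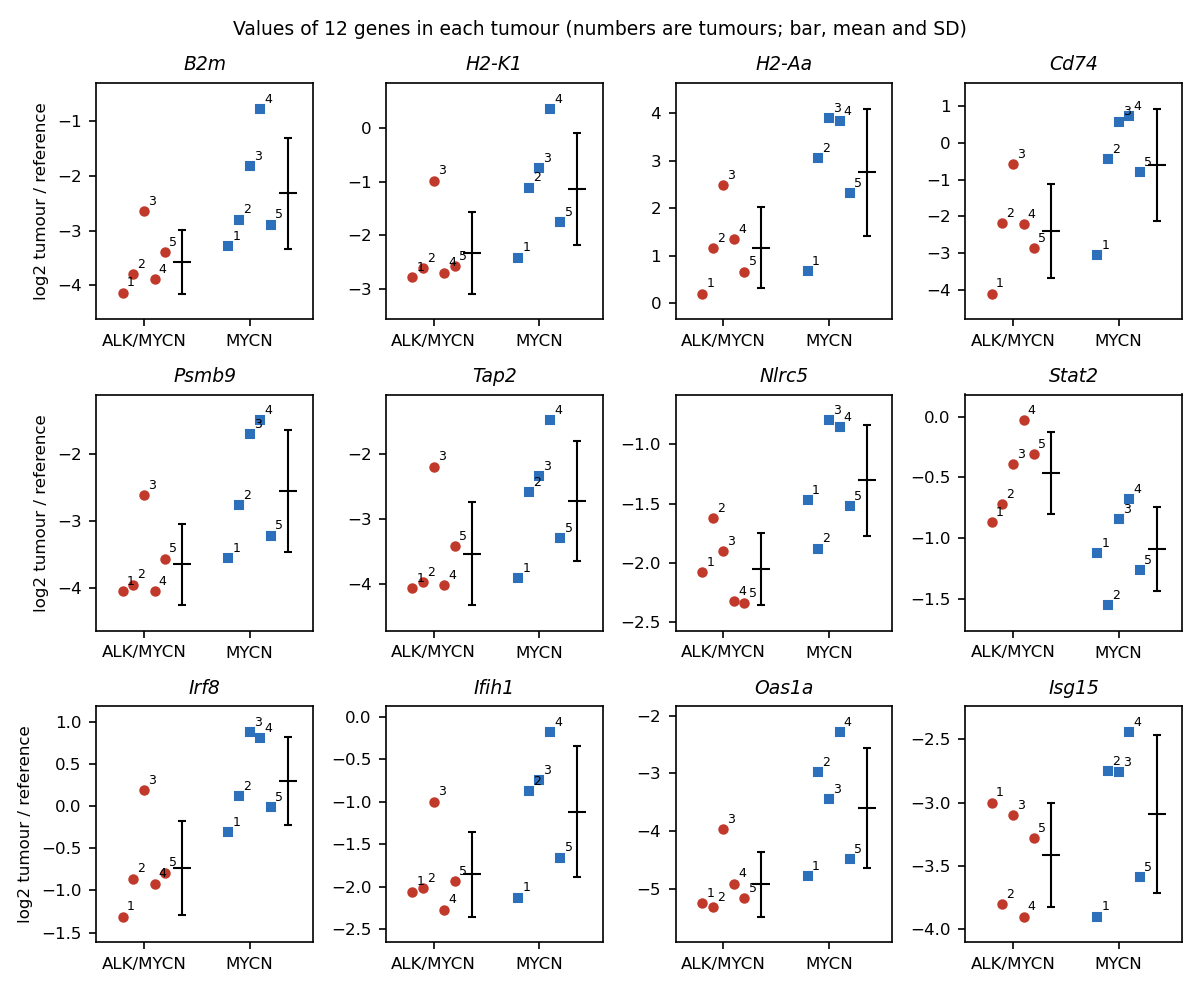
Log2 ratio of tumour over reference (vertical axis) in each of the 10 tumours for 12 genes, with the tumour's number beside each point and the mean and SD of each group (n = 5) beside the points. In B2m, H2-K1, Cd74, Tap2 and Ifih1, ALK/MYCN 3 sits with the MYCN tumours and MYCN 1 with the ALK/MYCN tumours.

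Genes that supply peptides to class I molecules divided by subunit. The 3 interferon-inducible catalytic subunits of the immunoproteasome had lower means, at -0.96 ± 0.39 for Psmb8, -1.10 ± 0.44 for Psmb9 and -0.34 ± 0.13 for Psmb10, and none passed (limma adjusted p = 0.0974, 0.0895 and 0.0865). Psmb9, a subunit encoded beside the TAP genes, read -4.05, -3.95, -2.62, -4.05 and -3.56 in ALK/MYCN tumours 1 to 5 and -3.55, -2.76, -1.71, -1.50 and -3.22 in MYCN tumours 1 to 5. Psmb8, its neighbour, read -3.78, -3.61, -2.62, -3.73 and -3.25 in ALK/MYCN tumours 1 to 5 and -3.36, -2.50, -1.69, -1.48 and -3.18 in MYCN tumours 1 to 5. In both genes MYCN 3 and MYCN 4 were the highest tumours and MYCN 2 and ALK/MYCN 3 came next. Psmb10, which lies outside that cluster, read -1.21, -1.24, -0.99, -1.45 and -1.13 in ALK/MYCN tumours 1 to 5 and -1.08, -0.91, -0.68, -0.50 and -1.14 in MYCN tumours 1 to 5. Its range over the tumours was only 0.95. The activator subunits Psme1 and Psme2, which form the PA28 ring, differed by 0.20 ± 0.13 and 0.00 ± 0.17 (limma adjusted p = 0.284 and 0.997), with 95% intervals of -0.09 to 0.50 and -0.38 to 0.38. Tap1, a chain of the peptide transporter, read -2.30, -2.23, -1.71, -2.15 and -2.19 in ALK/MYCN tumours 1 to 5 and -2.15, -1.64, -1.34, -1.16 and -2.03 in MYCN tumours 1 to 5. Its probe was above background on 2 ALK/MYCN and 4 MYCN arrays, so its difference of -0.45 ± 0.20 (limma adjusted p = 0.121) is weakly measured, and scanner-processed signals gave -1.27 (limma adjusted p = 0.123). Tap2, the partner of Tap1, was above background on every array and ran from -4.06 in ALK/MYCN 1 to -1.49 in MYCN 4, with ALK/MYCN 3 at -2.20. Its difference of -0.80 ± 0.49 and that of -0.60 ± 0.36 for Tapbp, which encodes tapasin, did not pass (limma adjusted p = 0.249 and 0.243). None of the 8 passed, and 4 had an unadjusted p under 0.05 (limma).

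The 3 members that passed are all regulators of transcription. Irf8, a factor of macrophages, dendritic cells and B cells, read -1.31, -0.86, 0.19, -0.92 and -0.79 in ALK/MYCN tumours 1 to 5 and -0.31, 0.12, 0.88, 0.81 and -0.01 in MYCN tumours 1 to 5. The means were -0.74 ± 0.56 against 0.30 ± 0.53 (SD, n = 5 each), and the difference between them was -1.04 ± 0.31 (SE, limma adjusted p = 0.0332), or 2.05-fold lower in ALK/MYCN tumours. ALK/MYCN 3 lay above 3 of the 5 MYCN tumours and the remaining ALK/MYCN tumours below all of them. Nlrc5, the transactivator of class I genes, read -2.08, -1.62, -1.90, -2.32 and -2.34 in ALK/MYCN tumours 1 to 5 and -1.47, -1.88, -0.80, -0.86 and -1.52 in MYCN tumours 1 to 5. The means were -2.05 ± 0.30 against -1.31 ± 0.46, a difference of -0.75 ± 0.22 (limma adjusted p = 0.0343), or 1.68-fold lower, and the groups overlapped between -1.88 and -1.62. Stat2, the STAT protein of the type I interferon complex, read -0.87, -0.72, -0.39, -0.03 and -0.31 in ALK/MYCN tumours 1 to 5 and -1.12, -1.55, -0.84, -0.68 and -1.26 in MYCN tumours 1 to 5. The means were -0.46 ± 0.33 against -1.09 ± 0.34, a difference of 0.63 ± 0.20 (limma adjusted p = 0.0395), or 1.54-fold higher, and MYCN 2 was the lowest tumour. Within slides 1, 2 and 3 the differences were -0.54, -1.49 and -1.13 for Irf8, -0.15, -1.24 and -0.94 for Nlrc5 and 0.40, 0.25 and 0.90 for Stat2. The probes lie at chr8:123280324-123280383, chr8:97051105-97051164 and chr10:127729834-127729893 (mm9). Each call depended on single tumours. Irf8 did not pass without ALK/MYCN 1, 2, 4 or 5 or MYCN 3 or 4 (limma adjusted p between 0.0637 and 0.0729). Nlrc5 did not pass without ALK/MYCN 1, 4 or 5 or MYCN 3 or 4 (limma adjusted p between 0.0652 and 0.0818). Stat2 did not pass without ALK/MYCN 3, 4 or 5 or MYCN 1, 2 or 5 (limma adjusted p between 0.0688 and 0.0879). With the mean of macrophage markers of each tumour as a covariate the differences were -0.05, -0.47 and 0.91 for Irf8, Nlrc5 and Stat2, and none passed (limma adjusted p = 0.936, 0.440 and 0.0944). With slide as a fixed block none of the 3 passed (limma adjusted p = 0.0590, 0.0539 and 0.132 for Irf8, Nlrc5 and Stat2).

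The other factors of this role did not pass. Irf1, the factor that interferon gamma induces early, read -3.97, -3.33, -2.73, -3.10 and -2.89 in ALK/MYCN tumours 1 to 5 and -3.34, -2.92, -1.42, -1.49 and -3.03 in MYCN tumours 1 to 5. MYCN 3 and MYCN 4 stood above all other tumours, and the difference was -0.76 ± 0.41 (limma adjusted p = 0.200). Irf7, which amplifies type I interferon production, differed by -0.48 ± 0.26 (limma adjusted p = 0.208). Irf9, the DNA-binding partner of STAT2, differed by 0.08 ± 0.17 (limma adjusted p = 0.764), with a 95% interval of -0.30 to 0.46. Stat2 and Irf9 were thus the transactivators with differences above 0, though that of Irf9 turned below 0 with slide as a fixed block.

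The cytoplasmic RNA sensors followed the same tumours. Ifih1, which encodes the sensor MDA5, read -2.06, -2.02, -1.00, -2.27 and -1.94 in ALK/MYCN tumours 1 to 5 and -2.13, -0.88, -0.75, -0.18 and -1.66 in MYCN tumours 1 to 5. The difference was -0.74 ± 0.37 (limma adjusted p = 0.165). Ddx58, which encodes the sensor RIG-I, read -2.19, -2.22, -1.40, -2.17 and -2.10 in ALK/MYCN tumours 1 to 5 and -2.33, -1.52, -1.49, -1.07 and -2.01 in MYCN tumours 1 to 5. The difference was -0.33 ± 0.24 (limma adjusted p = 0.339). In both genes ALK/MYCN 3 exceeded the other ALK/MYCN tumours. It lay below MYCN 2, 3 and 4 in Ifih1 and below MYCN 4 alone in Ddx58. Neither sensor had an unadjusted p under 0.05 (limma).

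Of the antiviral effectors, the oligoadenylate synthetase genes Oas1a and Oas2 and the tetherin gene Bst2 differed most, again within the spread between tumours. Oas1a, a synthetase that activates RNase L, read -5.25, -5.32, -3.96, -4.91 and -5.16 in ALK/MYCN tumours 1 to 5 and -4.78, -2.98, -3.44, -2.28 and -4.49 in MYCN tumours 1 to 5. The difference was -1.33 ± 0.47 (limma adjusted p = 0.0619), or 2.51-fold lower, and a second probe gave -0.62, so its size is uncertain, as is its share of signal from the closely similar Oas1 copies. Bst2, encoding tetherin, which holds budding virus at the membrane, read -3.69, -3.98, -3.34, -4.58 and -4.29 in ALK/MYCN tumours 1 to 5 and -4.21, -2.33, -3.21, -2.30 and -3.44 in MYCN tumours 1 to 5. The difference was -0.88 ± 0.38 (limma adjusted p = 0.112), and MYCN 2 and MYCN 4 were nearly equal at the top. Oas2, another synthetase, read -3.80, -4.02, -3.54, -3.82 and -4.13 in ALK/MYCN tumours 1 to 5 and -4.07, -2.50, -3.04, -1.69 and -3.74 in MYCN tumours 1 to 5. The ALK/MYCN tumours lay close together (SD 0.23, against 0.95 in MYCN tumours, n = 5 each), and the difference was -0.85 ± 0.39 (limma adjusted p = 0.137). Rsad2, encoding viperin, read -2.08, -1.62, -1.43, -2.55 and -1.41 in ALK/MYCN tumours 1 to 5 and -2.22, -0.48, -1.08, -0.73 and -1.36 in MYCN tumours 1 to 5. MYCN 2 was the highest tumour here, and the difference was -0.64 ± 0.33 (limma adjusted p = 0.180).

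The other effectors had smaller differences, none of which passed. Isg15, the ubiquitin-like modifier, ran from -3.90 in ALK/MYCN 4 and MYCN 1 to -2.44 in MYCN 4, with a difference of -0.33 ± 0.30 (limma adjusted p = 0.456, second probe -0.39). Usp18, which removes that modifier, differed by -0.31 ± 0.23 (limma adjusted p = 0.349). The RNA-binding tetratricopeptide genes Ifit1, Ifit2 and Ifit3 differed by -0.30 ± 0.18, -0.04 ± 0.11 and -0.28 ± 0.30 (limma adjusted p = 0.234, 0.812 and 0.524). Ifit2 had the narrowest range over tumours of the 38 genes, 0.50, and Ifit1 was above background on 2 ALK/MYCN and 3 MYCN arrays. The guanylate-binding protein genes Gbp2 and Gbp3, targets of interferon gamma, differed by -0.44 ± 0.47 and -0.60 ± 0.43 (limma adjusted p = 0.522 and 0.325). Oasl2, Ifi35 and Xaf1 differed by -0.15 ± 0.39, -0.18 ± 0.24 and -0.40 ± 0.39 (limma adjusted p = 0.809, 0.619 and 0.476), and the second probe of Xaf1 gave -0.86. Mx1, a GTPase that blocks influenza virus, was not well above background on any ALK/MYCN array and was so on 4 of 5 MYCN arrays. Its ratios, which were not tested, read -0.90, -0.71, -0.85, -0.80 and -0.63 in ALK/MYCN tumours 1 to 5 and -0.49, -0.23, -0.35, -0.07 and -0.80 in MYCN tumours 1 to 5. The mean Cy3 level of Mx1 was 6.73 (normalised log2) in MYCN tumours and 6.25 in ALK/MYCN tumours. For a second figure, each ALK/MYCN value was raised to the lowest signal well above background on its array. The MYCN mean was 1.32-fold above these raised values. That figure has no error or test, and the ratio of MYCN 5 lay among those of the ALK/MYCN tumours. None of the 14 tested effectors passed, and 2 had an unadjusted p under 0.05 (limma).

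The members varied far more between tumours of a group than genes at large. The median SD within a group was 0.66 for the 38 genes and 0.18 for all genes tested, and 25 of the 38 exceeded 0.50, the 90th percentile of all genes. This held in both groups, at 0.45 against 0.16 in ALK/MYCN tumours and 0.77 against 0.17 in MYCN tumours. The SD was larger among MYCN tumours for 33 of the 38, where 54% of all genes had that order. From the lowest to the highest tumour the median gene spanned 2.14, against 0.68 for all genes. These are descriptions, since genes of a list vary together and are not independent.

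**Figure D3:**
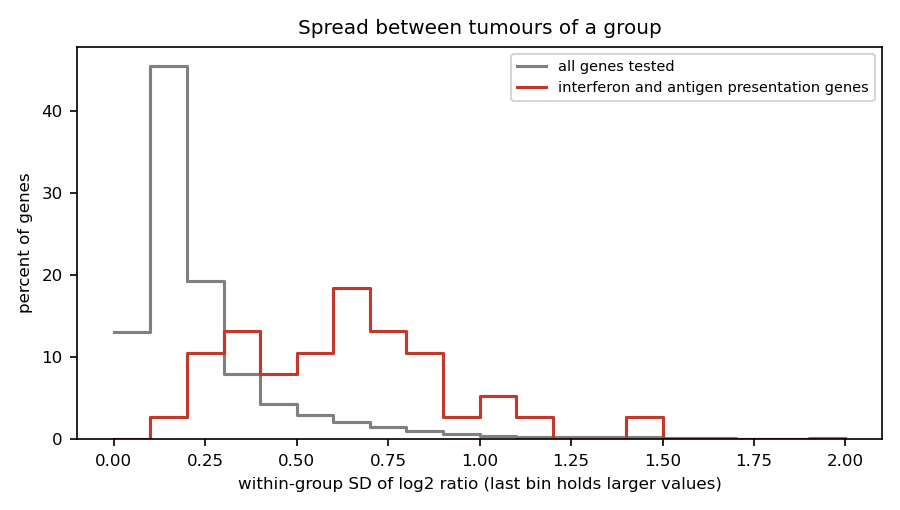
Distribution of the SD of log2 ratios within a group (horizontal axis, both groups pooled) as percent of genes (vertical axis), for the 38 genes and for all 22263 genes tested. The 38 genes centre on a median of 0.66 and all genes on 0.18.

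The same few tumours set the order in nearly every gene. MYCN 4 was the highest of the 10 tumours for 30 of the 38 genes and MYCN 3 for 5, and the lowest was ALK/MYCN 1 for 14, MYCN 1 for 10 and ALK/MYCN 4 for 8. Of the 38 genes, 38 lay above the median of the tumours in MYCN 4, 37 in MYCN 3, 36 in ALK/MYCN 3, 32 in MYCN 2 and 22 in MYCN 5. The numbers were 12 in ALK/MYCN 5, 4 each in ALK/MYCN 2 and 4, 3 in ALK/MYCN 1 and 2 in MYCN 1. MYCN 4 exceeded all ALK/MYCN tumours for 36 genes, MYCN 3 for 25, MYCN 2 for 20, MYCN 5 for 3 and MYCN 1 for 1. Centred per gene and averaged over the 38 genes, the tumours ran from -0.65, -0.51, -0.44 and -0.38 in ALK/MYCN 1, 4, 2 and 5 to 0.37 in ALK/MYCN 3. MYCN tumours 1 to 5 had -0.56, 0.43, 0.69, 1.15 and -0.10. MYCN 1 and MYCN 5 thus lay below 0, on the side of most ALK/MYCN tumours, and ALK/MYCN 3 above it.

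**Figure D4:**
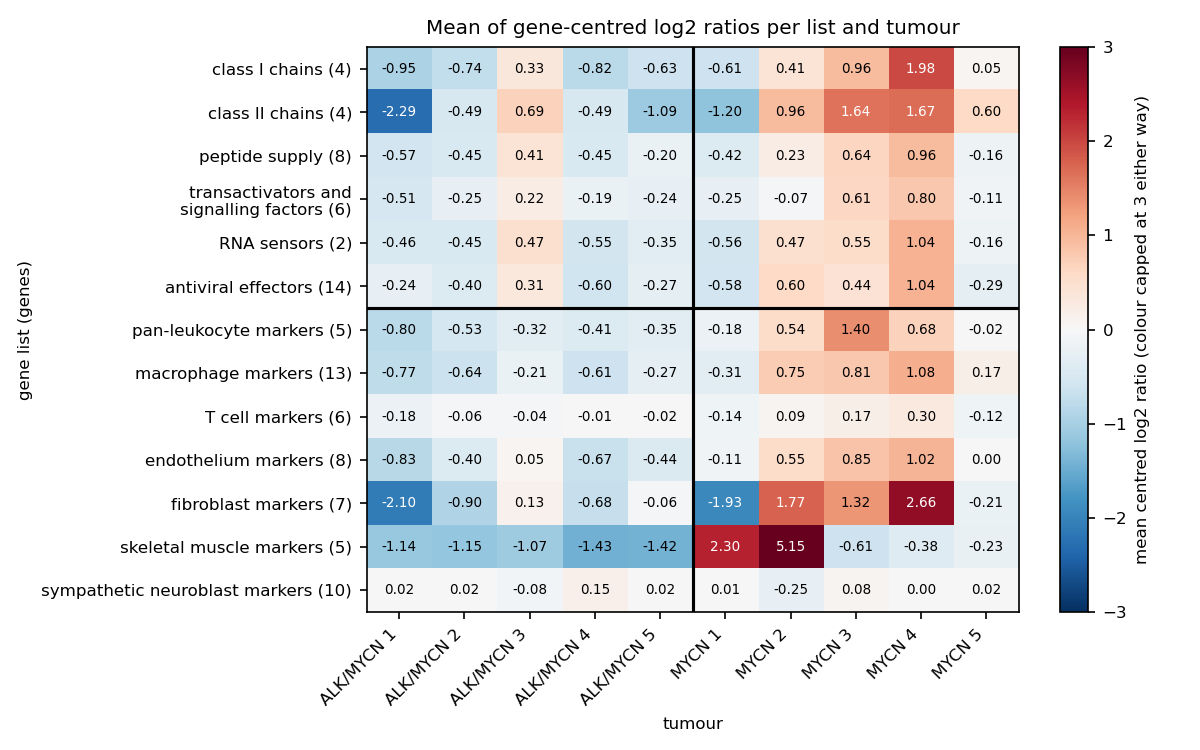
Mean of gene-centred log2 ratios per tumour (columns) for the 6 roles of the members (upper rows) and for marker lists of cell types (lower rows), with the number of genes in brackets and colours capped at 3. The lists of the members and of macrophage, endothelium and fibroblast markers are high in MYCN 3 and 4, and muscle markers stand at 2.30 and 5.15 in MYCN 1 and 2.

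Many macrophage, pan-leukocyte and endothelial markers were lower in ALK/MYCN tumours as well. None of the measured T cell, NK cell or dendritic cell markers passed as lower. Of 13 measured macrophage markers 10 were lower in ALK/MYCN tumours (limma, adjusted p under 0.05; 8 to 12 on leaving out each tumour in turn, 7 with slide as a fixed block, 6 without ALK/MYCN 3, MYCN 2 and MYCN 5), with a median difference of -0.97, and their per-tumour mean ran from -0.77 to -0.21 in ALK/MYCN tumours and was -0.31, 0.75, 0.81, 1.08 and 0.17 in MYCN tumours 1 to 5. Within the MYCN group this is the order of the means of the members, and it is not particular to macrophage markers. Endothelial markers (-0.11, 0.55, 0.85, 1.02 and 0 in MYCN tumours 1 to 5) had the same order. So did T cell markers (-0.14, 0.09, 0.17, 0.30 and -0.12), over a narrower range. Of 5 pan-leukocyte markers 4 were lower (1 without ALK/MYCN 1, 2 without ALK/MYCN 2, MYCN 2 or MYCN 4, 3 or 4 without each other tumour, and 1 with slide as a fixed block), without overlap of their means. Endothelial markers were lower for 5 of 8 (3 to 6, with 3 without ALK/MYCN 1, 2, 4 or 5 or MYCN 2, 3 or 4). Fibroblast markers were lower for 1 of 7, a share near the 12.2% of all genes, and for 4 without MYCN 1 and 0 without ALK/MYCN 1, 2, 4 or 5 or MYCN 2, 3 or 4 (limma; 2 lower at an unadjusted p under 0.05 with all tumours). All 7 fibroblast markers nevertheless had differences below 0, with a median of -1.46 and a range of -1.99 to -1.01. Their per-tumour means spread widely, from -2.10 to 0.13 in ALK/MYCN tumours (SD 0.88) and from -1.93 to 2.66 in MYCN tumours (SD 1.81, n = 5 each). Skeletal muscle markers, lower for 1 of 5, were highest in MYCN 1 and MYCN 2, at 2.30 and 5.15. Their means in MYCN 3, 4 and 5 were -0.61, -0.38 and -0.23, against -1.43 to -1.07 in ALK/MYCN tumours. These list means thus did not overlap, but of the single genes only Myh1 and Myh4 separated the groups, while Acta1, Myl1 and Tnnt3 overlapped. Myh1 was above background on 5 MYCN arrays and 0 ALK/MYCN arrays, so it was kept only through the MYCN group. All 10 sympathetic neuroblast markers, among them Hand2 and Th, were above background on every array, and their means spanned -0.25 to 0.15, so the tumours bear the transcripts of their label. Of them 3 were higher (limma), but 1 without ALK/MYCN 1, 2, 4 or 5 or MYCN 2, 4 or 5 and 0 with slide as a fixed block. With the macrophage mean of each tumour as a covariate, 2 of the 38 members were below 0, the median difference became 0.54, none passed as lower and 3 passed as higher (limma; 0 lower and 13 higher at an unadjusted p under 0.05). Of all genes, 6.1% were higher and 4.24% lower with that covariate, so 3 of 38 (7.89%) is near the share of all genes. The 3 were Tapbp at 0.80, Oasl2 at 1.35 and Gbp2 at 1.37. That covariate differs between the groups itself, and the part of other cell types in the differences was not tested.

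Removing single tumours moved the number of members that passed. Of all genes, 11.7% were lower without MYCN 1 and 11.2% without ALK/MYCN 3. In the 5 removals below where no member was lower, 7.95% to 9.90% of all genes were. Without ALK/MYCN 2, MYCN 2 or MYCN 5 the shares of all genes were 10.2%, 10.1% and 10.6%. Without MYCN 1, 16 of the 38 were lower, among them all 4 class I genes and all 4 class II genes, with Cd74 at -2.41 ± 0.64 and H2-Aa at -2.11 ± 0.48 (SE, limma adjusted p = 0.0265 and 0.0151). Without ALK/MYCN 3, 7 were lower, including B2m, H2-K1, H2-T23 and Psmb9. Without ALK/MYCN 1, 4 or 5, MYCN 3 or MYCN 4, none was lower (limma; 6, 6, 8, 4 and 5 at an unadjusted p under 0.05), without ALK/MYCN 2 there was 1, without MYCN 2 there were 2 and without MYCN 5 there were 3. The 2 tumours with the highest muscle marker means, MYCN 1 and MYCN 2, were also left out together, an alternative chosen after seeing the data. Then 7 members were lower and none higher (limma, 21 and 0 at an unadjusted p under 0.05). Of all genes, 8.38% were lower and 9.26% higher there. The median difference of the members stayed below 0 throughout, between -0.86 and -0.44 with single tumours left out. These removals change which tumours are compared and do not show which tumours represent their genotype.

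**Figure D5:**
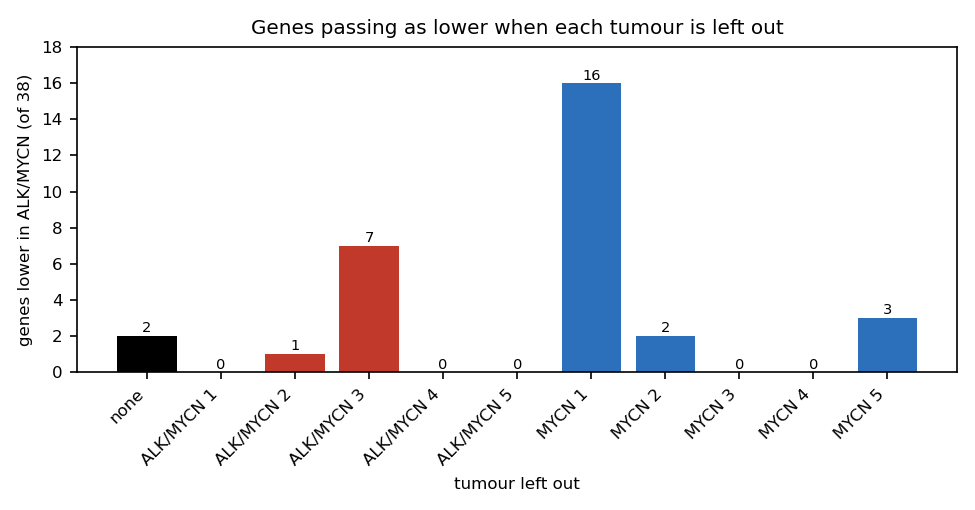
Number of the 38 genes that passed as lower in ALK/MYCN tumours (vertical axis, limma adjusted p under 0.05) with all 10 tumours (black) and with each ALK/MYCN (red) or MYCN (blue) tumour left out. The bar without MYCN 1 reaches 16 and that without ALK/MYCN 3 reaches 7, against 2 with all tumours.

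Both groups were present on each of the 3 slides. On slide 1, with 1 ALK/MYCN tumour against MYCN 1, 12 of the 38 genes were below 0 and the median difference was 0.11. On slide 2, with 3 ALK/MYCN tumours against MYCN 4, 36 were below 0 and the median was -1.41. On slide 3, with ALK/MYCN 5 against 3 MYCN tumours, 32 were below 0 and the median was -0.62. The direction of most members therefore did not hold on slide 1. Slides 1 and 2 each have a single MYCN tumour, so a slide and that tumour cannot be told apart there.

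The rest of the pathway was read from 8 lists of genes that are not members. Of their 98 measured genes, 11 were higher (11.2%, where the array had 14.2%) and 18 lower (18.4%, where the array had 12.2%) by limma, and the median difference was -0.30. These counts also moved with single tumours, while 7.95% to 11.7% of all genes were lower and 10.6% to 13.2% higher. The lower genes numbered 34 without MYCN 1, 11 without ALK/MYCN 2, MYCN 2 or MYCN 4, 10 without MYCN 3, and 9 without ALK/MYCN 1, 4 or 5. The higher genes numbered 7 without ALK/MYCN 1, ALK/MYCN 2 or MYCN 4 and 5 without ALK/MYCN 5. The calls of 13 of the 29 genes held without each tumour in turn.

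Among ligands, Ifnb1, Ifng, Ifna4 and Ifne were not above background on any array. Ifna1, Ifna2 and Il28b were measured and did not pass (limma; none at an unadjusted p under 0.05), with differences of 0.12 ± 0.07, -0.05 ± 0.10 and 0.12 ± 0.14. Of 9 receptor and kinase genes, Ifnar1 was higher by 0.56 ± 0.12 (limma adjusted p = 0.0102) and Ifngr1 lower, at -0.84 ± 0.27 (limma adjusted p = 0.0417). Ifnar1, a chain of the type I receptor, read higher only with its brightest probe; the other 2 probes gave -0.14 and -0.10, and the mean over all 3 probes, 0.11, did not pass (limma adjusted p = 0.280). Ifngr1, a chain of the receptor of interferon gamma, kept its call only without ALK/MYCN 3 or MYCN 1. Jak2 and Ifngr2 differed by 0.22 ± 0.13 and 0.17 ± 0.10, short of the threshold (limma adjusted p = 0.245 and 0.226). Of 8 feedback inhibitors, Socs3 was lower at -0.58 ± 0.17 (limma adjusted p = 0.0329), with no overlap of the groups. It no longer passed when any of ALK/MYCN 1, 4 and 5 or MYCN 2, 3 and 4 was left out. Ptpn1, Ptpn2 and Socs1 differed by 0.25 ± 0.09, -0.24 ± 0.10 and 0.51 ± 0.25, also short of it (limma adjusted p = 0.0600, 0.107 and 0.158).

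Of 14 genes that relay the sensing of nucleic acids, 4 were lower and 1 higher. Traf3, an adaptor of the antiviral sensors, was at -0.57 ± 0.08 (limma adjusted p = 0.00120), with no overlap of the groups and the same call without each tumour. Irf5, a factor of myeloid cells, was at -1.13 ± 0.29, Tmem173, which encodes STING, at -1.09 ± 0.34 and the kinase gene Ikbke at -0.45 ± 0.14 (limma adjusted p = 0.0196, 0.0384 and 0.0432). The higher gene, Trim25, was at 0.24 with another probe at -0.17, so its direction is uncertain, and it is named after its values were seen. Tmem173 kept its call only without MYCN 1 or MYCN 5, and Ikbke only without ALK/MYCN 3, MYCN 1 or MYCN 5. With slide as a fixed block Irf5 did not pass (limma adjusted p = 0.0536). With the macrophage covariate Traf3 remained lower, at -0.54 ± 0.13 (limma adjusted p = 0.0356), and Irf5 was at -0.03 ± 0.21 (limma adjusted p = 0.939).

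Of 34 further interferon-stimulated genes, 6 were lower and 3 higher. Eif2ak2, encoding the kinase PKR, was at -0.67 ± 0.12, the ubiquitin ligase gene Dtx3l at -1.00 ± 0.24 and Gbp9 at -0.59 ± 0.15 (limma adjusted p = 0.00355, 0.0134 and 0.0173). In each the groups did not overlap, and each kept its call without each tumour in turn. With the macrophage covariate none of the 3 passed, at -0.48 for Eif2ak2, -0.32 for Dtx3l and -0.09 for Gbp9 (limma adjusted p = 0.126, 0.517 and 0.733). Cmpk2, a nucleotide kinase gene that lies beside Rsad2, was higher at 1.00 ± 0.13 (limma adjusted p = 0.00104), where Rsad2 was at -0.64, and its second probe gave 0.55. The other higher genes, Oas1b at 0.28 and Sp110 at 0.32, are named after their values were seen. Further probes of Sp110 gave -1.22 and -0.31 and the mean over its probes -0.40, so its direction is uncertain.

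Of 13 further class I genes, 3 were higher and 1 lower. The higher ones are chaperones of the endoplasmic reticulum that fold class I and many other proteins. Canx, Calr and Pdia3 were at 0.42 ± 0.06, 0.42 ± 0.08 and 0.46 ± 0.12 (limma adjusted p = 0.00197, 0.00591 and 0.0173), and each kept its call without each tumour. With the macrophage covariate Calr was at 0.60, Canx at 0.36 and Pdia3 at 0.43 (limma adjusted p = 0.0193, 0.0618 and 0.187). H2-M3, a nonclassical heavy chain, was lower at -0.89 ± 0.25 (limma adjusted p = 0.0266), and no longer passed when any of ALK/MYCN 1, 2, 4 and 5 or MYCN 2 and 3 was left out. Of 12 further class II genes, 5 were lower and 1 higher. Ifi30, the lysosomal thiol reductase of antigen processing, was at -1.27 ± 0.19, the protease gene Lgmn at -0.64 ± 0.16 and the peptide exchange gene H2-DMb1 at -1.55 ± 0.41 (limma adjusted p = 0.00188, 0.0150 and 0.0199). These 3 kept their calls without each tumour, and Ifi30 and Lgmn separated the groups. With the macrophage covariate Ifi30 was at -0.55 ± 0.14, Lgmn at -0.26 ± 0.21 and H2-DMb1 at -0.10 ± 0.34 (limma adjusted p = 0.0390, 0.471 and 0.874). Creb1 was higher with its brightest probe, at 0.64, and lower with another, at -0.39, so its direction is uncertain.

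Of 5 constitutive counterparts of the immunoproteasome and its activator, 2 were higher. Psmb6 and Psmb5 were higher at 0.17 ± 0.05 and 0.20 ± 0.06 (limma adjusted p = 0.0337 and 0.0394), and Psmb7 stayed short of the threshold at 0.19 ± 0.07 (limma adjusted p = 0.0761). Psmb5 kept its call only without MYCN 1 or MYCN 5, and Psmb6 only without MYCN 5. Psme4, a proteasome activator, was at -0.24 ± 0.10 (limma adjusted p = 0.0893). The difference between the constitutive and the inducible subunits was not tested.

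Whole-array quality gave no sign of a failed array. The tumour channel exceeded background clearly at 53.8% to 58.7% of spots, no spot was saturated, and arrays of a group correlated at 0.867 to 0.972. The number of arrays limits the precision of every value.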

How the data were processed

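Spot intensities of 10 2-colour Agilent arrays were used as deposited by the authors, with Cy3 (tumour) and Cy5 (reference) mean signals and local backgrounds extracted, per the file headers, by Feature Extraction 10.7.3.1. The scanner-processed intensities deposited beside them, and the deposited log2 value table, which equalled the log2 ratio of those processed signals within 5.01e-04, served as checks or alternatives. Array columns had medians of -0.186 to -0.035. Probe coordinates are those of the file headers (mm9).

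Signals were corrected with normexp (offset 50), normalised by loess within arrays with control spots at weight 0, and turned to log2 of Cy3 over Cy5. Outlier spots were left out, spots of a probe averaged, probes kept where Cy3 stood well above background on 5 or more of the 10 arrays, and the probe of highest mean intensity taken per gene. ALK/MYCN tumours were compared with MYCN tumours in R 4.3.3 by limma 3.58.1 (linear model with eBayes, two-sided, Benjamini-Hochberg over 22263 genes, threshold 0.05). The fit was tested on simulated data. The members and lists were chosen with earlier results of these data known. Values in every tumour are given for up to 4 members of each role with the smallest p, and for members not above background in 1 group; of each pathway list up to 4 genes with the smallest p are named. The alternatives are other background corrections, scalings, probe filters and probe choices, slide and replicate blocks, a macrophage covariate and removal of tumours.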

Additional observations from a re-analysis of the deposited data

Results flagged for a closer look

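Of 76 pairs of a member and a group, 8 held a tumour whose gap to its nearest neighbour was a larger part of the range of the group than Dixon's 95% critical value for 5 samples (0.710) allows. Chance gives about 1 in 20 such groups, and the genes vary together, so these are not separate events.

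Of these, 6 concern ALK/MYCN 3, each time as the highest of its group. It read -0.98 for H2-K1 where the other 4 lay between -2.78 and -2.57, and -1.08 for H2-D1 where they lay between -1.79 and -1.63. It read -2.37 for H2-T23 against -3.49 to -3.25, and -1.71 for Tap1 against -2.30 to -2.15. In the RNA sensors it read -1.00 for Ifih1 against -2.27 to -1.94, and -1.40 for Ddx58 against -2.22 to -2.10. The other 2 concern MYCN 1, as the lowest of its group in class II genes. It read 0.99 for H2-Ab1 where the other 4 lay between 2.59 and 3.17, and 0.10 for H2-Eb1 where they lay between 1.79 and 2.47.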

How the results depend on the processing

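The median difference of the members stayed below 0 under all alternatives but 1, while their counts of calls, 1 higher and 2 lower, moved with many of them. With the macrophage covariate the median was 0.539, with 3 higher and 0 lower, where 6.1% of all genes were higher and 4.24% lower. No member was higher with scanner-processed signals, Cy3 alone, no filter on dim probes, slide as a fixed block, without ALK/MYCN 3, MYCN 2 and MYCN 5 together, or without MYCN 1 and MYCN 2 (0 each), and 2 were with spike-in centring. Lower members numbered 1 with scanner-processed signals, scaling between arrays or spike-in centring, and 7 without MYCN 1 and MYCN 2. Leaving out each tumour gave 0 to 1 higher, 0 to 16 lower and medians of -0.862 to -0.435. Of all genes, 10.6% to 13.2% were then higher and 7.95% to 11.7% lower.

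The pathway lists, with 11 higher and 18 lower, gave 7 higher with Cy3 alone, 26 with spike-in centring, 6 with the mean over probes or slide as a fixed block, 3 without the 3 tumours, 5 with the macrophage covariate and 5 without MYCN 1 and MYCN 2. The lower genes numbered 10 with scaling, 11 with spike-in centring or without the 3 tumours, and 2 with the macrophage covariate. Leaving out each tumour gave 5 to 11 higher and 9 to 34 lower. With the macrophage covariate 2 of the 38 members were below 0. Among named genes that passed with or without it, the sign turned for 7, at 0.80 for Tapbp, 1.35 for Oasl2, 1.37 for Gbp2, 0.01 for H2-M3, 0.12 for Ifngr1, 0.23 for Tmem173 and 0.03 for Ikbke. Of other called pathway genes, Ctss turned to 0.07 and Parp9 to 0.12 with that covariate, and Sp110 to -0.40 with the mean over probes. With spike-in centring Oasl2 was at 0.06 and Ifi35 at 0.03, neither past the threshold. The causes were not tested.

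Spike-in centring moved the median of all genes from -0.004 to 0.205, with 7039 genes higher and 928 lower, and 31 of 38 members below 0. Median centring gave 4454 higher and 1349 lower, against 3169 and 2723.

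With the replicate number as a block 5 members were lower (13.2%, against 9.41% of all genes), the 4 class II genes among them. The numbers do not pair the tumours: same-numbered tumours correlated at 0.339, -0.020, -0.081, -0.091 and -0.061, and 2 of 10 tumours correlated best with their own number.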

Other observations

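Markers of other immune cells did not move as a group. T cell markers passed for 0 of 6 measured genes (limma; 1 higher and 0 lower at an unadjusted p under 0.05), and Cd8a and Cd8b1 were not above background on any array. Of the NK cell markers only Prf1 was measured, at -0.03 (limma adjusted p = 0.780). Of the dendritic cell markers, Zbtb46 was higher at 0.58 (limma adjusted p = 0.0112), a call lost with the macrophage covariate, and the other 4 measured genes, Flt3, Itgax, Siglech and Batf3, did not pass. Of the B cell markers, Cd79b was lower at -1.26 (limma adjusted p = 0.0286), a call lost without ALK/MYCN 1, 2 or 5 or MYCN 4, with slide as a fixed block and with the macrophage covariate, and Cd79a was at -0.05 (limma adjusted p = 0.886), while Pax5 and Blk were not above background on any array. The lymph node stroma genes Ccl19 and Madcam1 were at -0.25 and -0.18, short of the threshold (limma adjusted p = 0.363 and 0.427).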
